A study of Mus musculus with 107 samples.

Results

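The eggs described here are 25 of the 107 single mouse eggs in the series: 16 M2 eggs with mutant Mos and 9 wildtype eggs activated with strontium. They were chosen from the batch 2 eggs to which the deposited egg table gives a Growths number of 2 and which held at least 10000 counts. No egg fell under that limit, and the 8 activated eggs with a Growths number of 1 were not used. The study set eggs lacking MOS beside intact and chemically activated ones. M2 eggs came from mos -/- C57BL/6J females, activated eggs from wildtype C57BL/6J females, and 24 wildtype C57BL/6J eggs of batch 2 without strontium are given beside both. All donors were 2 to 3 months old and received 5 IU of PMSG (pregnant mare serum gonadotropin) 48 h before collection. Every oocyte was held at the germinal vesicle stage in 2.5 µM milrinone, which blocks meiotic resumption, and then matured in culture. Activation consisted of 2 h in 10 mM strontium chloride without calcium, started 15 to 16 h after germinal vesicle breakdown. All eggs were collected at 38 to 40 h. The labels used here define neither M2 nor Growths, and they name no mother, litter or culture for any egg.

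MOS is a kinase translated from stored maternal mRNA during meiosis. Through MEK, ERK and RSK kinases it keeps the unfertilised egg at metaphase of the second meiotic division, and eggs without it can leave that arrest with no sperm. Fertilisation ends the arrest through calcium oscillations, which strontium imitates, and is followed by the decay of maternal mRNAs and by the start of transcription from the embryonic genome. In mouse, Dux, Zscan4, Usp17l and related multicopy genes are among the first genes transcribed at that start.

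Smart-seq2, which copies whole polyadenylated transcripts, gave 152068 to 1551993 counts per M2 egg (median 503731.5), 331846 to 1132319 per activated egg (median 758379) and 66826 to 630687 per wildtype egg (median 207420). With 1 egg per sample and no animal or culture named, each group was treated as 1 sample. Counts were summed to 10431925 (M2), 7371387 (activated) and 5436993 (wildtype), no test was made, and 95% intervals of folds cover counting error only. Single-gene values are CPM, counts brought to one library total, after TMM scaling (scaled CPM). Since they are shares of the total, a lower share need not be a lower amount per egg. M2 eggs lay on plates 1 and 2, activated eggs on plate 4 and wildtype eggs on plate 3, so plate and group cannot be told apart. M2 replicate 14 stood apart: at an equal depth of 60000 counts it held 2532 genes, while the other M2 eggs held 5311 to 7088, activated eggs 6392 to 7084 and wildtype eggs 4239 to 6281. Its summed values are included throughout, and egg ranges without it are given where they matter.

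Mos itself was sparsely counted and did not separate the groups. M2 eggs held 85 Mos counts in all and activated eggs 46, giving 8.003 scaled CPM in the M2 sum, 6.24 in the activated sum and 39.8 in the wildtype sum. The M2 over activated ratio was 1.28 (95% counting interval 0.886 to 1.88, log2 0.36). Counts were present in 13 of 16 M2 eggs and in 5 of 9 activated eggs, and the egg ranges overlapped, with 0 to 77.5 scaled CPM in M2 eggs and 0 to 30.1 in activated eggs. Mos lies on chromosome 4 at 3870657 to 3872105 of GRCm38 on the minus strand. The labels do not say which bases the mutation removed, so the gene's total cannot check the genotype.

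Among 9179 genes with at least 5 scaled CPM in either sum, 967 (10.5%) were at least 2-fold higher in M2 eggs and 655 (7.14%) at least 2-fold lower. The fold had to be met by the M2 sum and by the M2 eggs of each plate alone, and together these 1622 genes were 17.7% of those measured. Without the demand on each plate, 1452 genes were higher and 988 lower, or 26.6% of genes, while 16.0% were at least 2-fold apart between the M2 eggs of plate 1 and those of plate 2. The lower genes were mostly scarce in M2 eggs: their median level was 3.01 scaled CPM in M2, 15.1 in activated and 3.01 in wildtype eggs. The higher genes had medians of 34.6 scaled CPM in M2, 10.7 in activated and 41.7 in wildtype eggs. Folds of at least 8 were found for 62 higher and 189 lower genes.

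**Figure D1:**
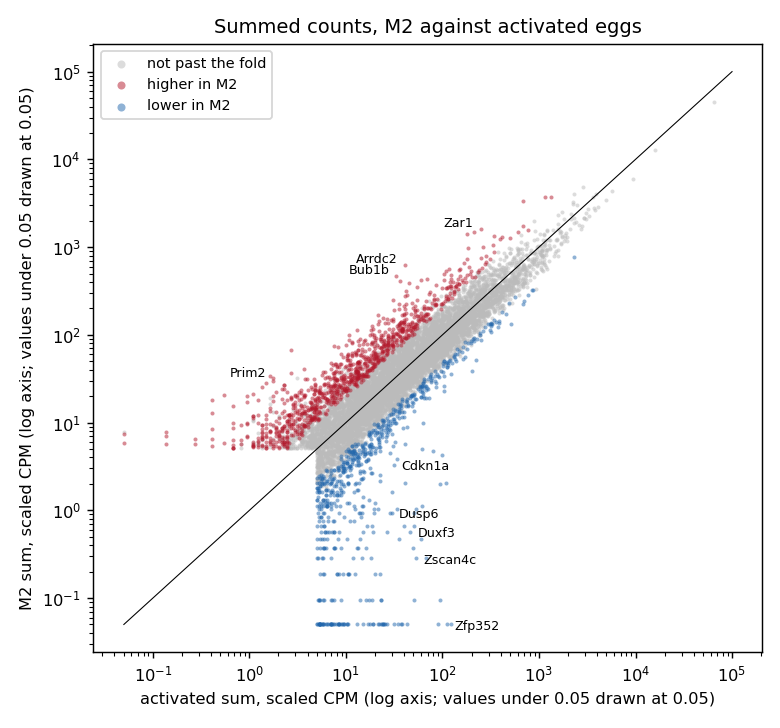
Each point is 1 of 9179 genes, with scaled CPM in the activated sum on the horizontal axis and in the M2 sum on the vertical axis, both logarithmic, and the diagonal marks equal levels. The 967 genes higher in M2 eggs (red) lie above the diagonal over the whole range, while the 655 lower genes (blue) include 64 with no M2 count, drawn along the bottom edge.

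Of the 21 gene lists, the transcripts of the first embryonic transcription had the largest share of members lower in M2 eggs. Of 29 measured members of a list of zygotic transcripts, 19 were lower (7.14% of all genes were), 1 was higher (10.5% of all genes) and 9 were not past the fold, and the list's median log2 fold was -4.81, beside -0.00075 over all genes. That median holds 8 members with no M2 count at their bound, taken as 3 counts in the M2 sum. The list was chosen with earlier results of these data known. A gene under 5 scaled CPM in the M2 sum was measured only through the activated sum, so it could be called lower but not higher. All 174 measured genes under 1 scaled CPM in the M2 sum were called lower. The 7.14% is therefore no like baseline for members scarce in M2 eggs. Many members are near-identical copies whose reads the counting could have split or lost, so sums over all copies are given for the Zscan4, Usp17l, Dux, Tcstv and Obox families.

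The Zscan4 family, proteins of 2-cell mouse embryos linked to telomere lengthening, had 28 counts over 5 genes in M2 eggs, 1586 in activated eggs and 1 in wildtype eggs. Counts were found in 5 of 16 M2 eggs, 9 of 9 activated eggs and 1 of 24 wildtype eggs. The lowest, median and highest summed values were 0, 0 and 29.1 scaled CPM in M2 eggs and 5.39, 286 and 711 in activated eggs. Most M2 eggs thus had no Zscan4 count, but the highest M2 egg overlapped the lower activated eggs. All 5 genes were past the fold, and the best counted, Zscan4d, held 1.98 scaled CPM in the M2 sum and 95.4 in the activated sum, 48.2-fold lower in M2 (95% counting interval 31.3 to 78.4).

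The Usp17l genes, which encode deubiquitinases, had 20 counts in M2 eggs, 1490 in activated eggs and 2 in wildtype eggs over 5 copies. M2 eggs held 0, 0 and 9.65 scaled CPM of the family (lowest, median, highest) and activated eggs 21.2, 178 and 798, so every M2 egg lay below every activated egg. Of the copies, Usp17lc had 0.471 scaled CPM in the M2 sum and 59.3 in the activated sum, with a log2 fold of -6.98. That value rests on few M2 counts: 4 of the 5 were in M2 replicate 16, and without it the log2 fold was -9.24. Usp17ld had no M2 count and 19.1 scaled CPM in the activated sum, which makes it at least 67.7-fold lower in M2 with 3 counts over the group as the floor.

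Dux is a homeobox gene whose protein switches on many genes of the 2-cell stage in mouse, and its 3 counted copies did not differ alike. Their sum was 82.4 scaled CPM in M2 eggs, 147 in activated eggs and 52.5 in wildtype eggs, 1.79-fold lower in M2 than in activated eggs. Single eggs overlapped, with 3.90, 50.6 and 427 scaled CPM of all copies in M2 and 85.7, 132.6 and 225 in activated eggs. The highest M2 egg was replicate 14, which the M2 sum includes, and the next was replicate 17 at 175. Of the copies, Duxf3 and Duxf1 were lower. Duxf3 had 0.565 scaled CPM in the M2 sum and 46.3 in the activated sum, 81.9-fold lower (95% counting interval 37.2 to 225), and Duxf1 had 0.659 and 50.9, with a log2 fold of -6.27 and of -7.26 without M2 replicate 7. All 9 activated eggs held at least 19.4 scaled CPM of Duxf3, above the highest M2 egg at 3.23. Duxf4, the third copy, had 81.2 scaled CPM in the M2 sum and 50.3 in the activated sum (log2 0.69) and was not past the fold. The 427 scaled CPM of replicate 14 held no Duxf1 and at most 3.23 of Duxf3. The M2 sum weighs eggs by their counts, of which replicate 14 held 367681. Replicate 17 held 899598 counts (175 scaled CPM of all Dux copies) and replicate 7 held 1551993 (98.1). Zfp352, a zinc finger gene of 2-cell mouse embryos, had no count in any M2 or wildtype egg, while activated eggs held 1.24, 54.2 and 357 scaled CPM (lowest, median, highest). It was at least 397-fold lower in M2 eggs by the same floor.

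Sums over all copies of other multicopy families, grouped by name after values were seen, differed from family to family. The Eif1ad copies had 11 counts in M2 eggs, 1307 in activated eggs and 0 in wildtype eggs. Tdpoz genes had 0, 320 and 1 counts in M2, activated and wildtype eggs, Eif4a3l genes had 1, 445 and 1, and Spopfm genes had 1, 167 and 0. The Alyreffm copies had counts in all 16 M2 eggs, and their sum was 5.53-fold lower, with 57.2 scaled CPM in M2, 316 in activated and 98.6 in wildtype eggs. Within that family Alyreffm2 had 1 count in M2 eggs against 696 in activated eggs. The Tcstv copies had 63.6 scaled CPM in the M2 sum and 216 in the activated sum, 3.39-fold lower, and single eggs of both families overlapped. The Obox genes, with 1254 and 1356 scaled CPM, and the 57 Pramel genes, with 3086 and 2874, were near level in the M2 and activated sums. Activated eggs varied widely among themselves: the Eif1ad copies ran from 6.20 to 779 scaled CPM. Replicates 7, 15 and 17 were the lowest, with 6.20, 9.43 and 12.4 for Eif1ad and 6.20, 5.39 and 9.71 for Zscan4. Replicate 11, the next lowest activated egg, had 50.5 and 60.6. Replicates 7, 15 and 17 also held no Eif4a3l or Spopfm count. Sums of Dux did not part them so, at 151, 112 and 85.7 scaled CPM, beside 111 in replicate 14. In 417 of the 655 lower genes, a single activated egg held over 25% of the activated counts, and in 56 of them over 50%.

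Not every gene of the list followed. Obox2, a homeobox gene present in growing mouse oocytes, was higher, with 515 scaled CPM in the M2 sum and 234 in the activated sum (log2 1.14). Its eggs overlapped, at 67.1, 317 and 1032 scaled CPM in M2 and 146, 211 and 295 in activated eggs. Tcstv3, a 2-cell gene that does have counts in 11 of 16 M2 eggs, was only 3.63-fold lower, with 7.25 scaled CPM in the M2 sum and 26.3 in the activated sum. Summed over the whole list, 3098 scaled CPM were measured in M2, 4180 in activated and 3518 in wildtype eggs.

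**Figure D2:**
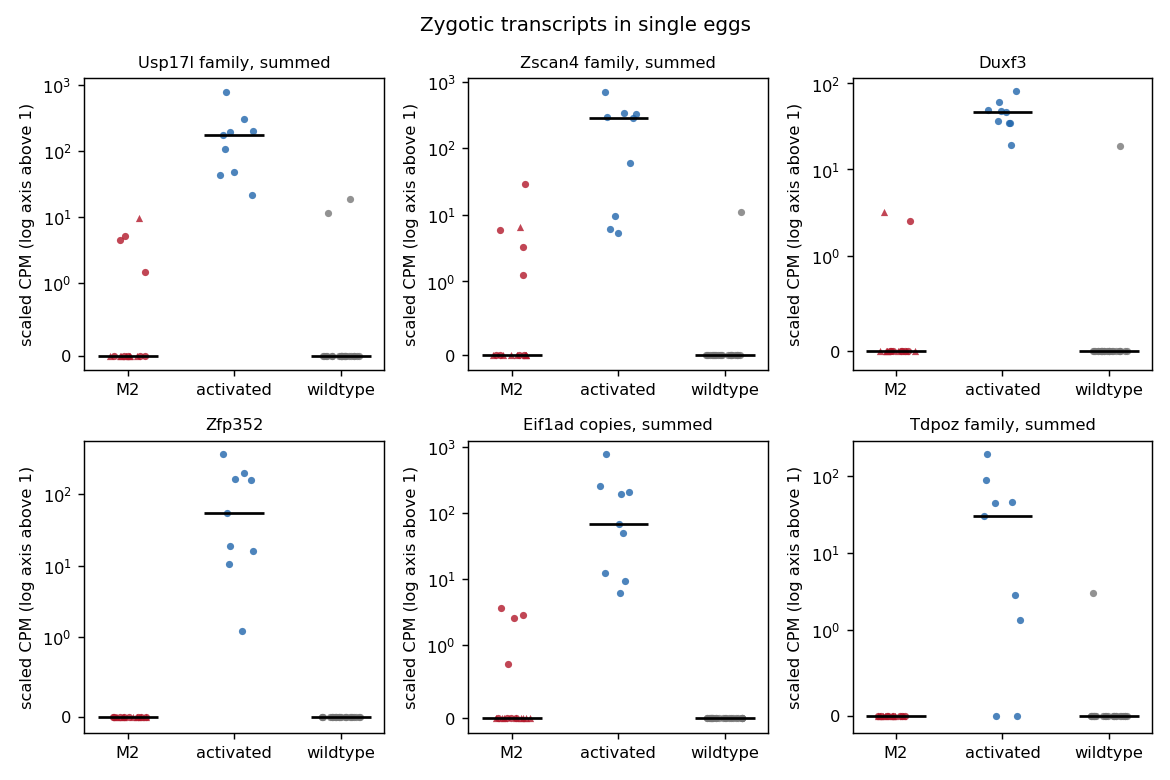
Each point is 1 egg, with M2 eggs of plate 1 as red circles and of plate 2 as red triangles, activated eggs in blue and wildtype eggs in grey, bars at the group medians, and scaled CPM on an axis that is linear up to 1 and logarithmic above. Duxf3 is shown without the other Dux copies. The median M2 and wildtype egg is at 0 in all 6 panels, and the median activated egg lies between 30.1 scaled CPM for the Tdpoz family and 286 for the Zscan4 family.

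The other genes with the lowest folds have varied roles. Myorg, a glycosidase-like membrane protein, had 1 count in M2 eggs and 137 in activated eggs, a ratio of 0.00507 (95% counting interval 0.000127 to 0.0287). Tchh, trichohyalin of the hair follicle, had 0.188 scaled CPM in the M2 sum and 22.8 in the activated sum, and its highest M2 egg at 2.79 was below its lowest activated egg at 7.45. Slc40a1, the iron exporter ferroportin, had 0.565 and 19.1 scaled CPM in the M2 and activated sums, or 33.9-fold lower in M2. These 3 folds rest on 1 to 6 M2 counts each. Leaving out the M2 egg that moved each most gave log2 folds of -7.87 for Tchh (replicate 11) and -5.88 for Slc40a1 (replicate 8), beside -6.92 and -5.08 with all eggs. For Myorg the only M2 count was in replicate 5. Without that egg its sum of 0 was taken as 3 counts, so its log2 fold of -5.93, beside -7.62 with all eggs, is a bound. All 3 genes had 0 counts in wildtype eggs. Coro7, a coronin of the Golgi, was 8.81-fold lower (95% counting interval 5.84 to 13.8), and log2 -3.81 without M2 replicate 15, against -3.14 with it. Brpf1, a scaffold of histone acetyltransferase complexes, had 0, 5.54 and 28.1 scaled CPM in M2 eggs and 17.3, 24.9 and 81.4 in activated eggs, with 15 of 16 M2 eggs below all activated eggs. Plk2, a polo-like kinase named after its values were seen, was 12.2-fold lower with no overlap, at most 15.3 scaled CPM in M2 eggs against at least 29.1 in activated eggs. Prps1, an enzyme that supplies nucleotide synthesis and likewise named afterwards, was 51.9-fold lower with no overlap.

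The MOS and MAP kinase cascade differed little gene by gene. Of 15 measured members, 1 was higher and none lower, beside 10.5% and 7.14% of all genes. The other 14 were not past the fold, and the list's median log2 fold was -0.35. Map2k2, which encodes MEK2, a kinase that activates ERK, was the higher one: M2 eggs held 0, 75.5 and 146 scaled CPM and activated eggs 6.59, 17.9 and 27.3, and the sums gave 2.94-fold (95% counting interval 2.43 to 3.58). Mapk3, which encodes ERK1, had 304 scaled CPM in the M2 sum and 308 in the activated sum. Summed over the 16 genes of the list, single M2 eggs held 2793 to 6618 scaled CPM and activated eggs 5235 to 7615. On that summed level, 13 of 16 M2 eggs were below every activated egg and 3 were within the activated range.

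ERK feedback genes were measured in 8 cases, of which 1 was lower and none higher, beside 7.14% and 10.5% of all genes. Dusp6, the ERK phosphatase whose gene is itself an ERK target, was the lower one, with 0.941 scaled CPM in the M2 sum, 29.98 in the activated sum and 3.47 in the wildtype sum. Its counts were in 2 of 16 M2 eggs and 8 of 9 activated eggs, so the M2 level is that of replicates 6 and 13, and the log2 fold was -4.99 with both, -6.10 without the first and -5.62 without the second. Spry4, an inhibitor of ERK signalling downstream of receptors, was named after its values were seen. It was only 1.67-fold lower in the M2 sum, but its egg ranges did not overlap. Spry4 levels were 465, 1574 and 2196 scaled CPM in M2 eggs and 2269, 2619 and 3291 in activated eggs. Wildtype eggs held 534, 839 and 1429, all below the activated eggs as well. Dusp1, another phosphatase of MAP kinases, was 2.31-fold higher in the M2 sum without meeting the fold on both plates.

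Regulators of CDK1 and of the arrest were mostly level, as were all genes, of which 10.5% were higher and 7.14% lower. Of 22 measured, Fbxo5, Cdc25a and Ccnb3 were higher, Cdc25c was lower and 18 were not past the fold. Fbxo5 encodes EMI1, an inhibitor of the anaphase promoting complex, and M2 eggs held 2.67, 184 and 379.5 scaled CPM of it, against 22.1, 30.1 and 76.5 in activated eggs. Its summed fold was 4.46 (95% counting interval 3.93 to 5.07), 13 of 16 M2 eggs lay above all activated eggs, and the lowest M2 egg was replicate 14. Cdc25a, a phosphatase that activates CDK, was 2.96-fold higher in the M2 sum, with 14 of 16 M2 eggs above all activated eggs, and eggs thinned to 150000 counts before summing gave a log2 fold of 2.22 instead of 1.57. Ccnb3, a B-type cyclin of meiosis, was 3.82-fold higher. Cdc25c, a CDK1 activator of the same family as Cdc25a, was 2.80-fold lower, with 4.90 scaled CPM in M2 and 13.7 in activated eggs. Ccnb1, the main B-type cyclin of the arrest, had 1024 scaled CPM in the M2 sum and 1020 in the activated sum, and Fbxo43, the gene of the cytostatic inhibitor EMI2, had 395 and 308. Wee2, the oocyte kinase that inhibits CDK1, was 1.84-fold lower without passing the fold.

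Few genes of the machinery that separates chromosomes were past the fold. In the anaphase promoting complex, Anapc4 and Anapc11 were higher among 19 subunits and regulators, and none was lower. Bub1b, Ndc80 and Spc24 were higher among 24 spindle checkpoint and kinetochore genes, with none lower. Both shares of higher genes were near the 10.5% of all genes. Bub1b, the checkpoint gene for BUBR1, had the widest gap, with 92.6, 433 and 2277 scaled CPM in M2 eggs and 15.1, 28.5 and 67.4 in activated eggs. No M2 egg overlapped the activated eggs, and the sums gave 13.9-fold (95% counting interval 12.3 to 15.9). A single M2 egg held 28.2% of the M2 counts of Bub1b, over the limit of 25% in the rule for named genes, so the gene was named after its values were seen. Spc24, of the kinetochore complex that binds microtubules, was 2.67-fold higher and overlapped.

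Among 20 cohesin and condensin genes, Smc4, Ncapg, Ncaph and Smc3 were higher and Pds5a lower, beside 10.5% and 7.14% of all genes. Smc4 and Ncapg encode condensin subunits, which compact chromosomes for division. M2 eggs held 8.01, 249.8 and 535 scaled CPM of Smc4 and activated eggs 9.04, 35.03 and 105, a summed fold of 6.68 (95% counting interval 5.93 to 7.54). For Ncapg the values were 21.4, 343 and 556 scaled CPM in M2 eggs and 0, 62.0 and 76.4 in activated eggs, a summed fold of 6.48. The lowest M2 egg of both genes was replicate 14, and without it the Ncapg ranges did not overlap, with 125.5 as the lowest M2 value. Wildtype medians were 502 scaled CPM for Smc4 and 365 for Ncapg.

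Maternal effect genes, whose egg transcripts serve the early embryo, were higher in M2 eggs in 8 of 30 cases and lower in none, beside 10.5% and 7.14% of all genes. The higher ones were Zar1, Tle6, Khdc3, H1f8, Nlrp14, Padi6, Ooep and Nlrp5, and the list's median log2 fold was 0.39. Tle6, Khdc3, Ooep, Nlrp5 and Padi6 belong to the subcortical maternal complex, a protein assembly under the egg membrane. Tle6 had 204, 1042 and 3571 scaled CPM in M2 eggs and 92.1, 177 and 404 in activated eggs, with 14 of 16 M2 eggs above all activated eggs. Its summed fold was 7.91 (95% counting interval 7.48 to 8.37). Wildtype eggs were also low in Tle6, with a median of 131.8 scaled CPM. For Zar1, which binds stored maternal mRNAs, M2 eggs held 294, 2198 and 5056 scaled CPM and activated eggs 149, 237 and 645, while the wildtype median was 2497. Its summed fold was 6.49, and 12 of 16 M2 eggs were above all activated eggs. The other 6 were 2.58-fold (Nlrp5) to 5.32-fold (Khdc3) higher. Zbed3, a further member of that complex and the most abundant gene of the list, went the other way, with 45641 scaled CPM in the M2 sum and 64426 in the activated sum (log2 -0.50, not past the fold), so the list's summed level was 79529 scaled CPM in M2 and 90981 in activated eggs.

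The zona pellucida and egg-sperm list had 6 higher and 1 lower gene among 18, beside 10.5% and 7.14% of all genes. Zp1, Zp2 and Zp3, the zona glycoproteins, and Gdf9, an oocyte growth factor, were higher, as were Astl and Fgf8. Zp3 had 409.9 scaled CPM in the M2 sum and 36.2 in the activated sum (11.3-fold), but 1 M2 egg held 38.1% of its M2 counts, and the M2 eggs ran from 0 to 2714 around a median of 179.9. Astl, the protease ovastacin that cleaves ZP2 after fertilisation, was more even, with 0, 67.8 and 413 scaled CPM in M2 eggs and 11.9, 17.9 and 46.2 in activated eggs, and 12 of 16 M2 eggs above all activated eggs. Fgf8, an oocyte growth factor acting on cumulus cells, was 6.74-fold higher in the M2 sum, and log2 4.53 after thinning against 2.75 without. Mfge8, an adhesion glycoprotein, was the lower gene at 10.8-fold.

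Among oocyte markers, 8 of 10 measured were higher in M2 eggs and none lower, beside 10.5% and 7.14% of all genes, the exceptions being Bmp15 and Oosp1. These 8 were already counted above, so they are no separate result. Zp1, Zp2, Zp3 and Gdf9 are on the zona list, and Zar1, Nlrp5, Padi6 and H1f8 on the maternal effect list. The summed level of the 10 markers was 12915 scaled CPM in M2 eggs, 4936 in activated eggs and 20856 in wildtype eggs. Single eggs ran from 6494 to 34478 scaled CPM in M2 and from 4008 to 5638 in activated eggs, without overlap. Granulosa and cumulus markers were also higher in sum. Amh, Inhbb and Ptx3 were at 0 in both groups, 3 of the 16 markers reached 5 scaled CPM in either sum, and the whole list summed to 207 scaled CPM in M2, 103.4 in activated and 350.0 in wildtype eggs. Their egg sums ran from 83.96 to 399 scaled CPM in M2 and from 76.5 to 167 in activated eggs, with 14 of 16 M2 eggs above all activated eggs. Serpine2, a secreted protease inhibitor, was the only one of those 3 past the fold and made up most of the sum, with 171 scaled CPM in M2 and 69.1 in activated eggs. The part of attached cells in the results was not tested. Markers of theca, stroma and endothelium summed to 106 and 111 scaled CPM in M2 and activated eggs, and blood markers to 27.2 and 27.8.

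Genes that act on mRNA were seldom past the fold, beside 10.5% higher and 7.14% lower among all genes. Among 25 genes that bind stored mRNA or control its translation, Lsm14b and Pabpn1l were higher and Pabpc1 was lower, and 11 of 16 M2 eggs were below all activated eggs in the summed level, at a median of 5536 scaled CPM in M2 and 6831 in activated eggs. Pabpn1l, an embryonic poly(A)-binding protein that takes part in maternal mRNA clearance in mouse, was 5.41-fold higher (95% counting interval 4.81 to 6.12), with 14 of 16 M2 eggs above all activated eggs. In the mRNA decay list, Tob2, Patl2 and Dcp1a were higher among 25 and none was lower. Tob2, which links deadenylases to mRNA, had 5.34, 247 and 651 scaled CPM in M2 eggs and 34.5, 56.5 and 83.1 in activated eggs. Without M2 replicate 14 the lowest M2 egg was at 132.3, above all activated eggs. Btg4, the adaptor that brings the deadenylase to maternal mRNAs, was level, with 2146 scaled CPM in M2 and 2308 in activated sums. Patl2, an oocyte mRNA-binding protein, was 6.77-fold higher, and log2 3.59 without activated replicate 14 against 2.76 with it.

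Chromatin enzymes stood apart by egg more than by gene. Over all genes, 10.5% were higher and 7.14% lower. Among 27 genes of DNA methylation and chromatin, Dnmt1 and Tet3 were higher and Kdm5b lower, yet the summed level was above every activated egg in 14 of 16 M2 eggs, at 7718, 10733 and 12844 scaled CPM in M2 and 5518, 6979 and 7991 in activated eggs. Dnmt1, the maintenance DNA methyltransferase, had 149.6, 941 and 4248 scaled CPM in M2 eggs and 122.99, 278 and 322 in activated eggs, a summed fold of 3.87 (95% counting interval 3.69 to 4.07). Tet3, the oxidase of methylated cytosine in the zygote, was 2.46-fold higher and above all activated eggs in 15 of 16 M2 eggs. Kdm5b, a histone H3 demethylase, was 8.82-fold lower, with 3.86 scaled CPM in the M2 sum, 34.1 in the activated sum and 10.4 in the wildtype sum.

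**Figure D3:**
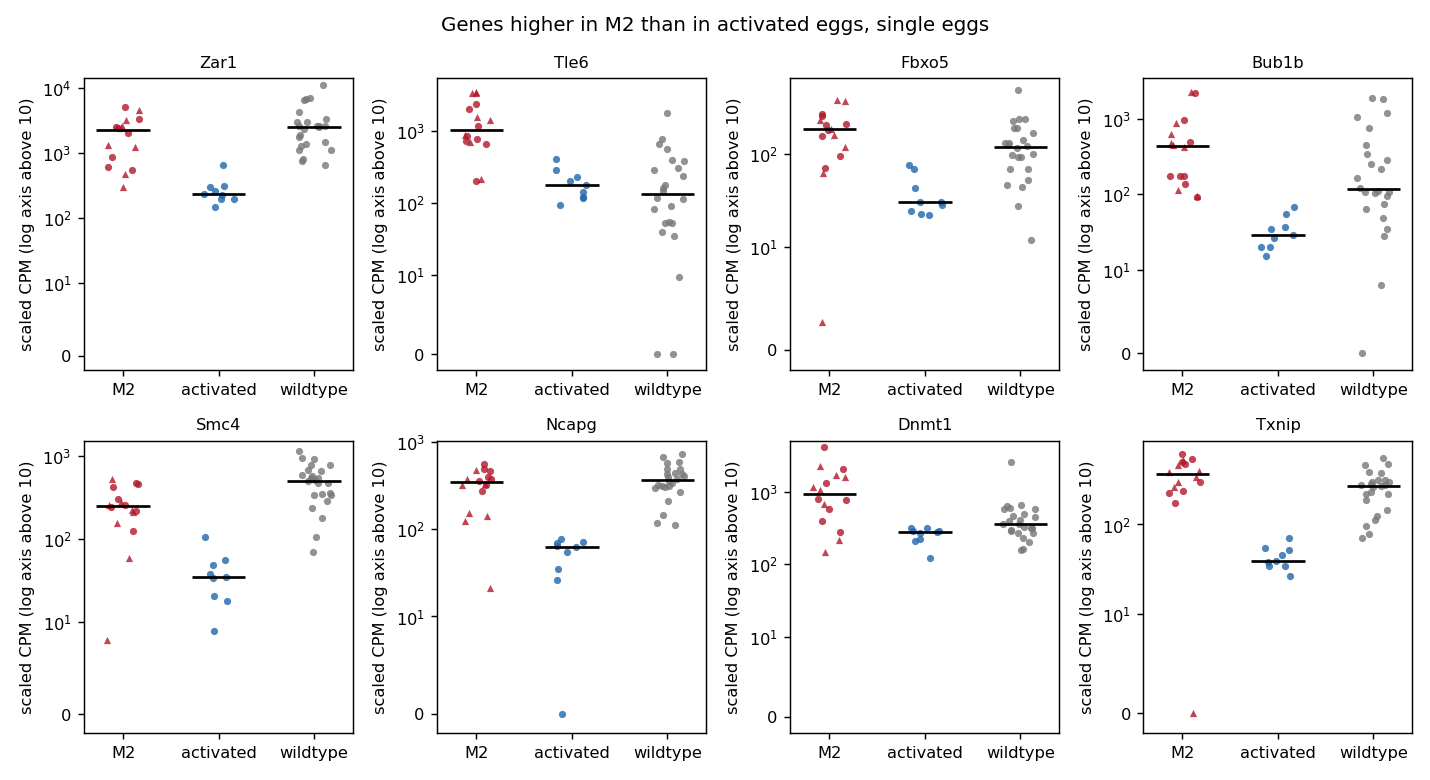
Each point is 1 egg, with M2 eggs of plate 1 as red circles and of plate 2 as red triangles, activated eggs in blue and wildtype eggs in grey, bars at the group medians, and scaled CPM on an axis that is linear up to 10 and logarithmic above. In all 8 panels the M2 median lies above the highest activated egg, and the M2 range in scaled CPM is wider than the activated range.

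DNA replication genes had 4 higher and 2 lower among 30, near the 10.5% and 7.14% of all genes. Mcm4, of the replicative helicase, had 0, 380.3 and 636 scaled CPM in M2 eggs and 29.01, 89.3 and 182 in activated eggs, and without M2 replicate 14 the lowest M2 egg was at 213, above all activated eggs. Gins3, of the same helicase complex, was 6.58-fold higher, while Gins4 was 2.08-fold lower and Dbf4, the activator of the CDC7 kinase, 2.69-fold lower. Prim2, the large primase subunit, is not on that list. It was 18.1-fold higher (95% counting interval 10.4 to 34.3), at log2 4.18, and 5.00 with eggs thinned to 150000 counts. Its levels were 0, 26.1 and 65.4 scaled CPM in M2 eggs and 0, 1.79 and 5.53 in activated eggs.

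Other genes of high fold were low in activated eggs and are on none of the lists. Arrdc2, an alpha-arrestin, had 0, 515 and 10230 scaled CPM in M2 eggs, 11.1, 37.7 and 65.8 in activated eggs and 331, 1862 and 4452 in wildtype eggs. Its summed fold of 15.2 (log2 3.93) was larger with every egg weighted alike (log2 5.28). Zfp866, a zinc finger gene, was 16.98-fold higher (log2 4.09), and log2 5.56 without activated replicate 16. Leo1, of the transcription elongation complex PAF1, was 13.5-fold higher and Mpg, a DNA glycosylase of base repair, 11.3-fold. Slc25a17, a carrier of the peroxisome membrane, was 11.001-fold higher with every M2 egg, from 11.2 scaled CPM, above every activated egg, up to 9.93. Steap4, a metalloreductase, and Mfsd10, Sec11c and Cebpz were 10.4-fold (Cebpz) to 14.7-fold (Steap4) higher. Without activated replicate 11 the log2 folds were 4.56 for Steap4 and 4.30 for Mfsd10, beside 3.87 and 3.54 with it. With eggs thinned to 150000 counts before summing they were 5.44 for Arrdc2, 4.95 for Mpg and 5.28 for Sec11c, beside 3.93, 3.50 and 3.47 unthinned.

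In the proteasome, 8 of 28 measured genes were higher and none lower, beside 10.5% and 7.14% of all genes. Of these, Psma7, a subunit of the core, had 77.5, 198 and 385 scaled CPM in M2 eggs and 30.4, 54.6 and 114.5 in activated eggs. Psmd6, of the regulatory particle, was 2.78-fold higher. Among 26 genes of the nucleolus and rRNA processing, 7 were higher and 2 lower: Nolc1, a nucleolar chaperone, was 3.67-fold higher in the sum but log2 1.21 with plate 1 alone and 2.51 with plate 2 alone, and Nop2, an rRNA methyltransferase, was 3.62-fold lower. Single eggs overlapped in the summed level of both lists, with 6 of 16 M2 eggs above all activated eggs in each.

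Stress genes were divided. Txnip, the thioredoxin inhibitor, was higher with 0, 365 and 614 scaled CPM in M2 eggs and 26.3, 39.3 and 69.8 in activated eggs, and all M2 eggs but replicate 14, which had no count, were above all activated eggs. Dnaja1, Hspa4, Hsph1 and Hsp90aa1, chaperones and their partners, were higher too, at 2.84-fold (Hsph1) to 6.56-fold (Hspa4), and Bag3, a chaperone partner, was lower, with 1 count in M2 eggs and 52 in activated eggs. These make 5 higher and 1 lower of 25, beside 10.5% and 7.14% of all genes. In the p53 and DNA damage list, Cdkn1a and Gadd45g were lower and Bax higher among 20, beside 7.14% and 10.5% of all genes. Cdkn1a, the CDK inhibitor p21, had 0, 0 and 8.73 scaled CPM in M2 eggs and 0, 36.6 and 84.4 in activated eggs, 9.59-fold lower in the sum (95% counting interval 6.70 to 14.1). Bax, which promotes cell death, was 2.16-fold higher (log2 1.11) and under 2-fold without M2 replicate 13 (0.98) or activated replicate 17 (0.99).

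In the remaining lists few members were past the fold, beside 10.5% higher and 7.14% lower among all genes. Among 29 tubulin, kinesin and dynein genes 4 were higher and 1 lower: Kif20b, a kinesin of late mitosis, was 2.88-fold higher, Dync1li2, a dynein light intermediate chain, 3.02-fold (log2 1.59, and 2.40 without activated replicate 11), and Tuba1a, an alpha-tubulin, had no M2 count and 8.28 scaled CPM in the activated sum. Among 18 calcium genes, Atp2b1, the plasma membrane calcium pump, was 4.91-fold and Stim2, the calcium sensor of the endoplasmic reticulum, 5.27-fold higher, the fold of Stim2 being log2 1.62 on plate 1 and 3.09 on plate 2. Calm3, a calmodulin gene, was 2.88-fold lower, and Itpr1, the calcium channel that answers fertilisation, had 150.4 scaled CPM in M2 and 114.1 in activated sums, not past the fold. None of 24 cortical actin and cytokinesis genes was past the fold, Rdx, the most counted, being 1.75-fold higher. None of 7 mitochondrially encoded genes was either: mt-Co1 had 946 scaled CPM in the M2 sum and 1288 in the activated sum. The M2 plates differed for mt-Co1, with 1260 scaled CPM on plate 1 (log2 fold -0.03) and 510 on plate 2 (-1.33). Mitochondrial transcripts were nevertheless a smaller share of the counts in the median egg, at 0.0585% in M2, 0.286% in activated and 0.168% in wildtype eggs, with overlapping ranges.

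**Figure D4:**
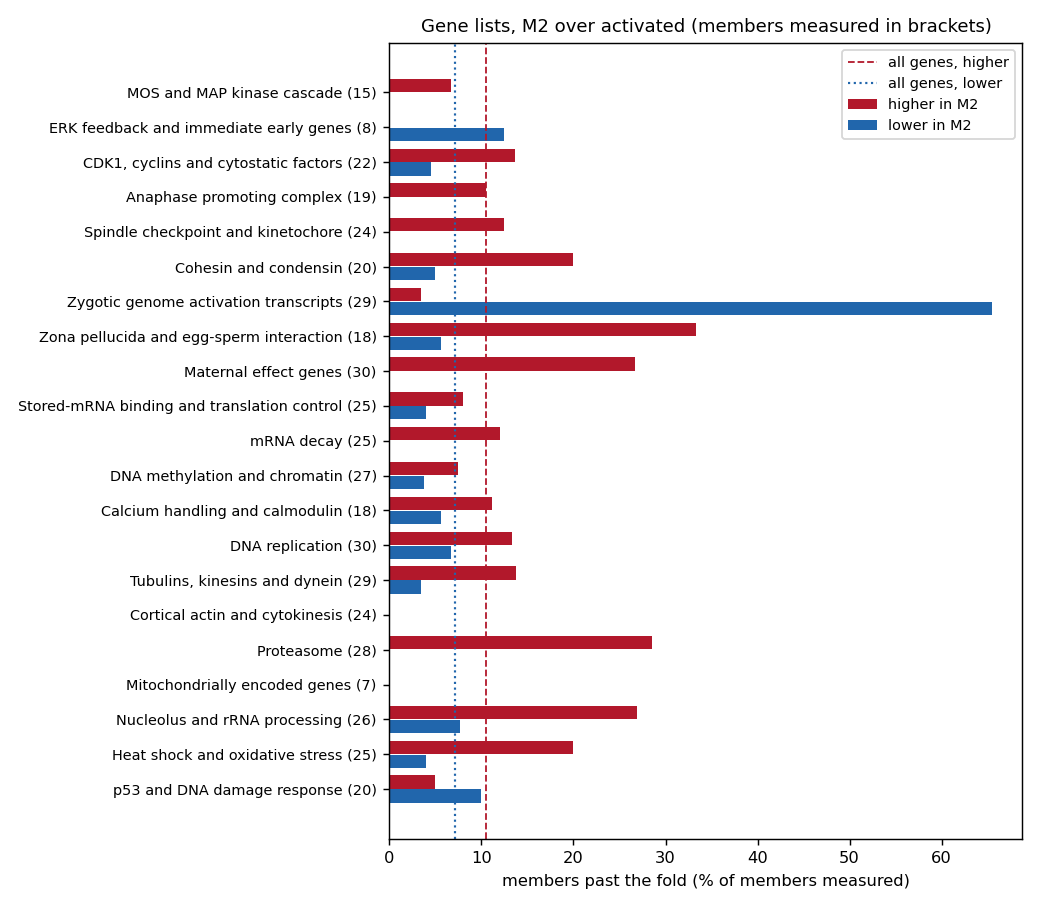
Bars give the percent of measured members of each of 21 lists that were at least 2-fold higher (red) or lower (blue) in M2 than in activated eggs, with the number measured in brackets, and the lines mark the same percent over all genes, 10.5% higher and 7.14% lower. The zygotic list is the longest blue bar, and the zona, proteasome, nucleolus and maternal effect lists have the longest red bars.

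The 3' ends of the transcripts were also compared. Stored maternal mRNAs are known to have their poly(A) tails lengthened or shortened, and Smart-seq2 primes on those tails. Cytoplasmic polyadenylation is known to use TTTTAT or TTTTAAT elements (as DNA) near the transcript end. The median 3' UTR had 1044.5 bases among genes higher in M2, 1104 among lower genes and 1222.5 among all genes measured. Either element, on the transcript strand, was present anywhere in the 3' UTR of 64.1% of 930 higher, 62.2% of 587 lower and 65.99% of all 8806 genes with an annotated 3' UTR. In the last 100 bases, a window chosen after the data were seen, it was present in 25.3% of 885 higher, 16.0% of 563 lower and 20.6% of all 8546 genes whose 3' UTR is at least that long. Of 39 genes higher in M2 that the naming rule took and that have a 3' UTR, 13 had it there. The following 6 of these 30-base stretches are shown because the genes carry the cell cycle, chromatin and stress results above, with the element in capitals and the rest in lower case, 5′ to 3′, from the GENCODE M21 transcripts of GRCm38.
Fbxo5: aatgtgagttttTTTTATatctgtgaatac
Ncapg: ctaacatgaaatTTTTATtgtgcttctgct
Dnmt1: gacttgatgtagTTTTATatgttgtaatat
Tet3: tgttttaataaaTTTTATatttattttttg
Kif20b: tcttgtatataaTTTTAATtcaataaatat
Txnip: aaaaataaagttTTTTAATgacaaaaataa
The element ends 20 (Tet3) to 78 (Fbxo5) bases before the transcript end. Fbxo5 lies on chromosome 10 at 5799160 to 5805600 (minus strand), Ncapg on chromosome 5 at 45669919 to 45700546 (plus), Dnmt1 on chromosome 9 at 20907209 to 20959888 (minus), Tet3 on chromosome 6 at 83362373 to 83459084 (minus), Kif20b on chromosome 19 at 34922361 to 34975745 (plus) and Txnip on chromosome 3 at 96557957 to 96561883 (plus). A match describes these letters and shows no use of the element.

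Single eggs showed how unlike the M2 eggs were among themselves. Pearson's r between 2 eggs over the 9179 genes, on log2 of CPM plus 10, had a median of 0.773 between M2 eggs of the same plate (56 pairs), 0.767 between M2 eggs of different plates (64 pairs), 0.752 between M2 and activated eggs and 0.83 between activated eggs (36 pairs), which all shared 1 plate. All 9 activated eggs were on average more like other activated eggs, whereas 9 of 16 M2 eggs were more like other M2 eggs and 7 more like activated eggs. That split includes M2 replicate 14, whose own mean r was 0.478 with M2 eggs and 0.481 with activated eggs. As a partner it lowers the mean r of other M2 eggs with M2 eggs, but not with activated eggs. The means were not taken without it, so the split does not show that 7 M2 eggs resemble activated eggs. Of the genes past the fold, 25 higher and 16 lower ones had egg ranges that did not overlap, and without M2 replicate 14 these were 45 and 16. Over all 9179 genes the ranges did not overlap for 0.512% (25 with M2 above and 22 with M2 below), and for 0.784% without that egg. Zygotic counts were not all in the same M2 eggs: Usp17l counts were in replicates 6, 7, 8 and 16 and Zscan4 counts in replicates 5, 7, 8, 10 and 17.

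**Figure D5:**
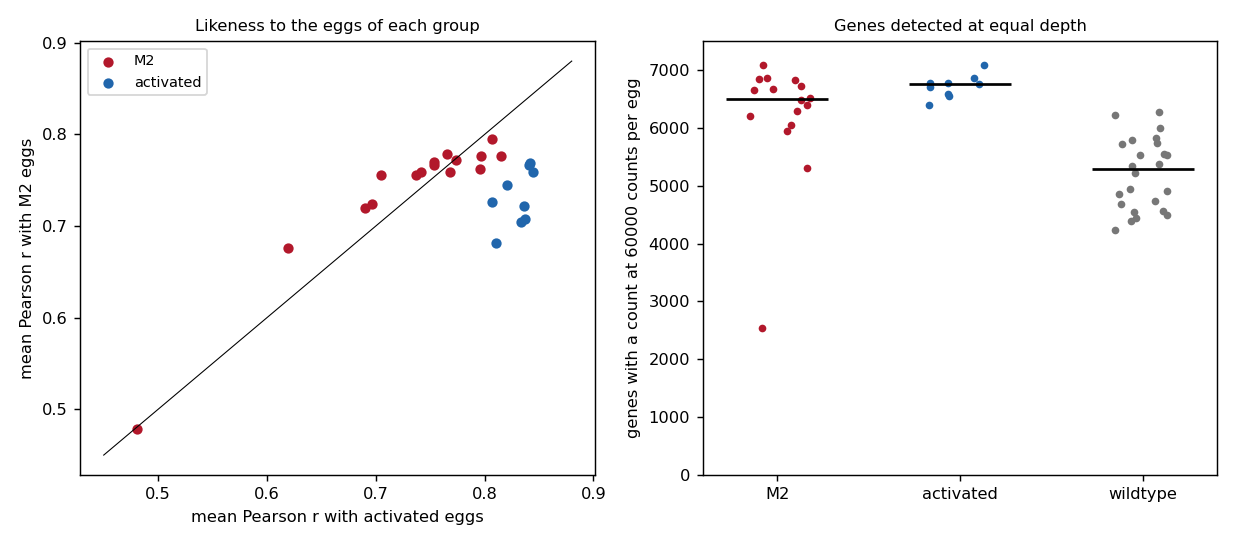
Left, the mean Pearson r of each M2 (red) and activated (blue) egg with the activated eggs (horizontal) and with the M2 eggs (vertical), the diagonal marking equal likeness. Right, the number of genes with a count in each egg thinned to 60000 counts, with bars at the medians of 6501 (M2), 6763 (activated) and 5283 (wildtype), and M2 replicate 14 alone at 2532.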

How the data were processed

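The authors deposited raw whole-number counts for 21564 gene symbols in 107 eggs and a table giving each egg a plate and a Growths number. Per the submitters' processing notes, STAR and HTSeq were used with GRCm38 and mm10 as the build. Their versions and the counting options were not given in the sources available here. Smart-seq2 does not mark strand, so overlapping and antisense genes, like near-identical copies, are uncertain. No 2 eggs had identical values, and no row lacked a gene name.

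Eggs were taken as labelled, summed per group (and per plate for M2) and scaled with TMM factors of 1.018 (M2), 1 (activated) and 0.795 (wildtype) from edgeR 4.0.16 in R 4.3.3, with which no test was run. The rest used Python 3.11.15, pandas 2.3.3, numpy 2.4.6 and scipy 1.17.1. Folds are ratios of scaled CPM between sums, with exact conditional (Clopper-Pearson) 95% counting intervals and 3 counts in place of a sum of 0. Genes past the fold had at least 5 scaled CPM in either sum and a fold of at least 2, in the same direction with all M2 eggs, plate 1 alone and plate 2 alone. Genes were named by rule: the 10 highest and 10 lowest folds among those with at least 16 scaled CPM and at most 25% of the higher group's counts in 1 egg, without predicted genes, clones and pseudogenes; up to 2 members past the fold of each list, or its most counted member; and Mos. Other genes in the text, among them Zfp352, Zscan4d, Duxf3, Spry4, Zp3 and Kdm5b, were named outside this rule, after their values were seen. The 21 lists held 540 entries, of which 533 were found. Eggs, lists and the naming rule were chosen with earlier results of these data known. The families, the correlations between eggs, the egg ranges without M2 replicate 14 and the window of the last 100 bases were added after the values were seen. In the reference annotation (GENCODE M21, GRCm38), used for positions and 3' UTRs, 88.9% of symbols were found. The procedure was tested on simulated counts. PCR copies were not told apart by molecular identifiers, so intervals cover counting error only. Alternatives were other scalings, filters, folds and weightings of eggs, each plate alone, and each egg left out in turn.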

Additional observations from a re-analysis of the deposited data

Results flagged for a closer look

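Of 75 values tested over the 9 activated eggs (named genes and summed lists), 12 had a single egg far from the other 8. The limit used flags about 1 of 20 by chance where values are normally distributed. Scaled CPM need not be so distributed, least of all from few counts, so no excess over that rate is read. The M2 group, with 16 eggs, is too large for the same test. In each case the highest egg stood out. Replicate 10, the activated egg with the fewest counts, was that egg for Brpf1 (81.4 scaled CPM, the next egg 47.3), Zar1 (645, next 313) and Psma7 (114.5, next 72.1), and for the summed MOS and MAP kinase cascade (7615, next 6162), ERK feedback genes (4825, next 4068) and tubulins, kinesins and dynein (8468, next 6665). Replicate 11 was highest for Smc4 (105 scaled CPM, next 56.5), Dync1li2 (25.96, next 9.93) and the summed p53 and DNA damage list (10039.9, next 7099). Prim2 stood out in replicate 13 (5.53, next 2.64), Patl2 in replicate 14 (13.2, next 3.01) and Zfp866 in replicate 16 (8.46, next 1.77).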

How the results depend on the processing

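The counts of 967 genes higher and 655 lower in M2 eggs rest on the filter, the fold and the plates. A filter of 1 CPM gave 1408 lower genes, no filter 1975 higher and 1438 lower, and a fold of at least 4 gave 214 and 231, with 3 maternal effect genes higher in place of 8. Plate 1 M2 eggs alone gave 1098 lower genes, and plate 2 alone 1531 higher and 1343 lower. These follow from their construction, since they widen, narrow or drop a demand. RLE scaling gave 953 higher and 667 lower, no scaling beyond the total 986 and 640, equal weight per egg 1055 and 703, eggs thinned to 150000 counts 1128 and 811, totals without mitochondrial genes 969 and 654, and no limit on counts per egg 967 and 655. Upper quartile scaling gave 802 and 807, so that 49.8% of the genes past the fold were higher, against 59.6%, and the median gene moved to -0.10 on the log2 scale. Leaving out each egg in turn gave 887 to 1040 higher and 578 to 746 lower genes, 17 to 20 lower zygotic transcripts and 6 to 9 higher maternal effect genes. Without M2 replicate 14 there were 976 higher and 633 lower genes, of which 914 and 598 were also past the fold with it. None of 1997 single-gene values under these alternatives reversed direction, and 1864 stayed within their counting interval. These values cover the genes named by rule, so not Zfp352, Zscan4d or Duxf3. The 51 named genes past the fold had to meet it on each plate, so the plate settings could not reverse them. Many were also chosen for large folds in these same data, so the lack of reversals is no separate support. With eggs thinned, the log2 fold was -5.60 for Usp17lc, -4.90 for Tchh, -5.56 for Myorg and 2.23 for Anapc11, beside -6.98, -6.92, -7.62 and 1.46. Usp17lc, Tchh and Myorg had only 5, 2 and 1 M2 counts before thinning. Usp17ld, with no M2 count, had -3.68 beside -6.08. Both are bounds from 3 counts in place of 0, which weigh more in a smaller sum. No paired analysis was possible because no test was made and the replicate numbers of M2 and activated eggs tie no eggs together.

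Each group is 1 sample, so no spread between animals or cultures is known, and plate, treatment and genotype differ together. Genes with few counts, which include most zygotic transcripts in M2 eggs, have wide counting intervals, and a count of 0 does not show absence. Wildtype eggs were the shallowest, so a wildtype median of 0 says less than an activated one.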

Other observations

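Genes on none of the lists were among those whose eggs did not overlap, and are named here after their values were seen. Tsc22d1, a leucine zipper protein of the TGF-beta response, ran from 689 to 2693 scaled CPM in M2 eggs and from 126 to 289.9 in activated eggs (6.91-fold in the sums), with a wildtype median of 1508. Dnajc3 and Creld2, both known from the stress response of the endoplasmic reticulum, were 6.15-fold and 3.90-fold higher in M2, and Arcn1, a coat protein of Golgi vesicles, 5.76-fold. Hif1a, the oxygen-regulated transcription factor, ran from 274 to 1207 scaled CPM in M2 eggs and from 124.99 to 239 in activated eggs. Stau1, which binds double-stranded RNA, and Ssb, the La protein that binds RNA polymerase III transcripts, were 2.53-fold and 6.38-fold higher. In the other direction, Rbmx, an RNA-binding protein of splicing, had no M2 or wildtype count and 1.35 to 83.1 scaled CPM in activated eggs. Tmem231, of the ciliary transition zone, was lower in M2 at 0 to 74.7 scaled CPM, against 76.9 to 169 in activated eggs.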
